A study of Mus musculus with 4 samples.

Results

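Plasmacytoid dendritic cells were picked out of single-cell transcriptomes of mouse tumours by the transcripts they carried. A cell was taken as a member when it held at least 3 unique molecular identifiers (UMIs, 1 for each captured mRNA molecule) of Siglech, at least 1 of Ly6d, Ccr9 and Cox6a2 together, at least 1 of Bst2 and none of the T cell genes Cd3d and Cd3g. In addition, the neutrophil genes S100a8 and S100a9 had to make up under 1% of its UMIs. Of 33064 cell barcodes in 4 libraries, 32133 had at least 300 detected genes and no more than 15% mitochondrial UMIs, and 167 of these kept cells were members.

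The tumours were grown from 4T1, a mouse mammary carcinoma line, and 1000000 cells were implanted in the right flank of female BALB/c mice aged 6 to 8 weeks. Injections were given intravenously on day 7, near-infrared light of 980 nm at 1.0 W/cm2 was given from day 8 to day 10 for 5 min a day, and tumours were taken on day 13. According to the methods, cells carrying the leukocyte antigen CD45 were sorted before droplet capture. The labels give 2 samples as injected with PBS and 1 with TIOs, porous carriers made from macrophages and loaded with light-sensitive particles, with the same light for all. The remaining sample is named PBS by its title and TIOs by its protocol, so it was left unassigned. No label ties a barcode suffix to a sample. The libraries are therefore called 1 to 4 by suffix, their treatment is unknown, and no comparison between treatments was made. All values below describe these 4 libraries, with intervals of 95% that cover counting error only.

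Plasmacytoid dendritic cells are a branch of the dendritic lineage that develops under the transcription factor TCF4 and looks more like a lymphoid than a myeloid cell in its secretory apparatus. They detect viral or self nucleic acids in endosomes through the receptors TLR7 and TLR9, and IRF7 downstream of these receptors can drive large amounts of type I interferon. In tumours they are often described as poorly stimulatory for T cells. Siglec-H, which signals through the adaptor DAP12, and CCR9, a homing receptor for the chemokine CCL25, are among their surface markers in mice.

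Siglech alone removed most cells, since 185 kept cells had at least 3 UMIs of it, and the remaining conditions reduced these to 179, 177, 172 and 167. Members held a median of 13 Siglech UMIs and at most 37, and its summed level was 1717, 1585, 1625 and 1656 CPM (the gene's UMIs per 1000000 UMIs of the summed cells) in libraries 1 to 4. Conventional dendritic cells held 3.12 CPM, and 0.794% of cells in the T cell gate had a UMI of it. These values chose the members and are given as description only. At the edge of the threshold, 7 members with 3 or 4 Siglech UMIs held a median of 6 of 12 other genes of plasmacytoid dendritic cells that the rule did not use, a set chosen with their values known. The 20 cells with 1 or 2 Siglech UMIs that met every other condition held a median of 4, and the 160 members with 5 or more held a median of 11. Over all members the median was 10 of 12, and 159 of 167 held at least 6. Among kept cells outside the rule, 11 held at least 8 of the 12, and of these 2 lacked the Siglech count, 1 lacked the accessory genes, 4 had Cd3d or Cd3g and 5 exceeded the S100a8 and S100a9 limit, with 1 cell failing in 2 respects.

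Ccr9 was the accessory gene that most members carried. It was detected in 98.8% of members at 1824, 1371, 1823 and 1058 CPM in libraries 1 to 4, against 6.48 CPM in conventional dendritic cells. Cox6a2, a subunit of cytochrome c oxidase otherwise known from muscle, was found in 82.0% of members, and 136 members held both genes. Ly6d was different. It was found in 17 members, 15 of which also held Ccr9, with 365, 26.2, 0 and 21.0 CPM in libraries 1 to 4, so its level was highest in library 1 and library 3 held none. Bst2, a tetherin that restricts virus release and is interferon-inducible in other cells, stood at 2948, 3909, 2212 and 3452 CPM, against 305 CPM in conventional dendritic cells. Every member holds Siglech and Bst2 by the rule, so of the 4 markers of the label only Ccr9 and Ly6d could vary in how many members held them.

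The promoters of Siglech, Ccr9 and Bst2, which the rule used, and of the kallikrein gene Klk1, which it did not, are shown because they can be read against the transcription factor and interferon results. Each runs from 250 bases before to 50 bases after the transcription start in the direction of the gene (RefSeq, GRCm38.p6). Capitals mark the E-box CAGNTG, in which TCF4 and other E proteins are known to bind, on either strand, and in Bst2, where E-boxes are left unmarked, GAAA followed after 2 bases of any kind by GAAA, or TTTC and TTTC so spaced on the other strand, a core of interferon response elements.
Siglech: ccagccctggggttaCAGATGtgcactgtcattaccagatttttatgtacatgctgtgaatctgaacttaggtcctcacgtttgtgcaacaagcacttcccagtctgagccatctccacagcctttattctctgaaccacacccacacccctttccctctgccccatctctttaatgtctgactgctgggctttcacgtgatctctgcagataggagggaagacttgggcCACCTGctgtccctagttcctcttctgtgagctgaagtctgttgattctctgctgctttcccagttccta
Ccr9: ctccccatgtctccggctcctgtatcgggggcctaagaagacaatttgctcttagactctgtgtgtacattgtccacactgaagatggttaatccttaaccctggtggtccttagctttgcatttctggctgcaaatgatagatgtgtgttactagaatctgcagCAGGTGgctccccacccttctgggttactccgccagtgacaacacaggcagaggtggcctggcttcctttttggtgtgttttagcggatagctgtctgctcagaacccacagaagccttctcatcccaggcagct
Klk1: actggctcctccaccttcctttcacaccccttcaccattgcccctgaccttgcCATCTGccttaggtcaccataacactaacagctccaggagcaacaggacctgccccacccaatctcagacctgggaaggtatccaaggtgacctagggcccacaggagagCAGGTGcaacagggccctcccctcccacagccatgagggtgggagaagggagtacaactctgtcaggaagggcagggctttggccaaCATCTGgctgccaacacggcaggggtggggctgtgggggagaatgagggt
Bst2: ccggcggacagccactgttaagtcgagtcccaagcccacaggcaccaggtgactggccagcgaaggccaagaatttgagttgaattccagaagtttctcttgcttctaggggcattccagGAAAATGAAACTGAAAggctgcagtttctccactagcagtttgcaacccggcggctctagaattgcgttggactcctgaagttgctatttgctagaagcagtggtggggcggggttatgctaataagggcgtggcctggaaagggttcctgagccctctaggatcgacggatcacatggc
The windows lie at chr7:55767934-55768233 on the plus strand, chr9:123766961-123767260 on the plus strand, chr7:44225110-44225409 on the plus strand and chr8:71537423-71537722 on the minus strand. Siglech held 2 matches, Ccr9 held 1, Klk1 held 3 and Bst2 held 2 overlapping matches to the interferon letters. An E-box of these letters stood in 51.4% of the 32851 promoters in the table and in 8 of the 11 promoters found for 10 of the 15 genes with the highest ratio to conventional dendritic cells. The interferon letters stood in 3.44% of all promoters and in 17 of the 34 promoters found for 29 of 40 listed interferon-stimulated genes. These matches describe letters and not bound sites.

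Members made up 0.520% (0.444 to 0.605%) of kept cells, and library 4 held 113 of the 167. Libraries 1, 2 and 3 held 11, 24 and 19. As shares of kept cells these were 0.140% (0.0700 to 0.251%), 0.279% (0.179 to 0.414%), 0.280% (0.169 to 0.437%) and 1.27% (1.05 to 1.53%) in libraries 1 to 4. The interval of library 4 did not overlap that of any other library, and those of libraries 1 to 3 overlapped one another. Without library 4 the share was 0.232%.

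The denominator did not hold the same cells in every library, since 37.9, 52.2, 55.6 and 77.4% of kept cells in libraries 1 to 4 had a UMI of Ptprc, the gene of CD45. Counted over cells with a Ptprc UMI, a denominator chosen after the data were seen, members made up 0.336, 0.534, 0.504 and 1.64%. Library 4 again stood above the others, with an interval of 1.35 to 1.97% against an upper bound of 0.793% in library 2. Conventional dendritic cells were gated for comparison as 3 kinds among non-members: mature cells with Ccr7, Fscn1 and Ccl22, type 1 cells with Xcr1 or Clec9a, and type 2 cells with Cd209a and H2-Ab1. They numbered 58, 171, 242 and 140 in libraries 1 to 4. Of plasmacytoid and conventional dendritic cells together, members were 15.9% (8.24 to 26.7%), 12.3% (8.05 to 17.8%), 7.28% (4.44 to 11.1%) and 44.7% (38.4 to 51.0%). The share of cells with Ptprc moved with the share of members, and its part in the difference was not tested. With 1 library each, of unknown treatment, these shares have no replicate error.

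**Figure D1:**
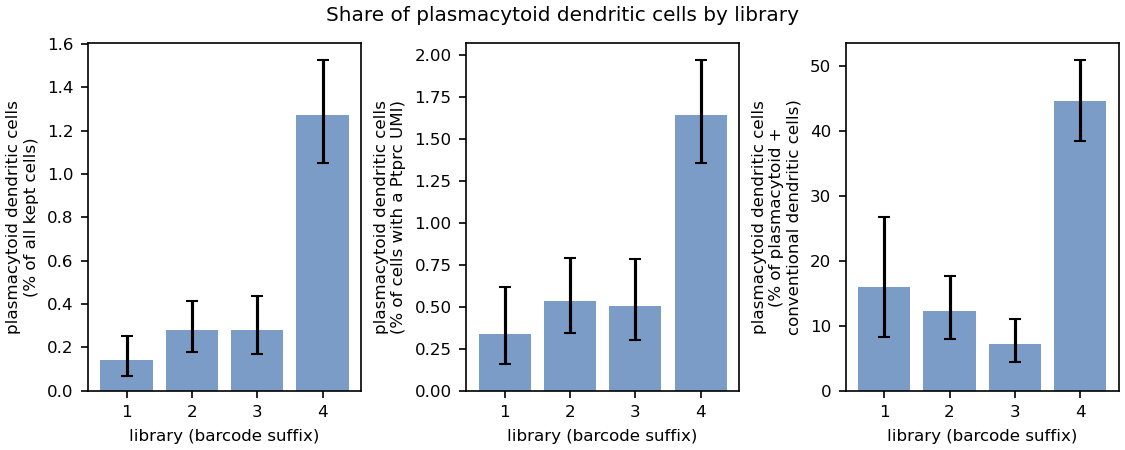
Plasmacytoid dendritic cells in libraries 1 to 4 as a percentage of kept cells (left), of cells with a Ptprc UMI (middle) and of plasmacytoid and conventional dendritic cells together (right). Bars start at 0 and error bars are exact 95% binomial intervals, and library 4 stands highest in each panel at 1.27, 1.64 and 44.7%.

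Median depth of the members was similar in the 4 libraries, while single members differed widely. The medians were 5867, 6699, 6761 and 7069 in libraries 1 to 4, with a range over all of 1501 to 60644 and 1437811 UMIs in sum, although kept cells as a whole had medians of 11698, 2641.5, 2695 and 7182. Members held a median of 2717 genes and 1.78% mitochondrial UMIs. When each cell was thinned to 1000 UMIs, members held a mean of 683 genes, the 3 conventional gates 585 to 621 and the T cell gate 635. No member barcode sequence was shared between libraries, although 101 barcode sequences occurred in more than 1 library.

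No doublet caller was run, and large members were listed instead. In all, 8 members held over 20000 UMIs, 1 in library 2 and 7 in library 4, and these held 19.4% of the members' UMIs and 90.1% of their UMIs of 6 fibroblast genes. Col3a1, a fibrillar collagen, was therefore above conventional dendritic cells with those 8 members, at 3219 against 1439 CPM, and below them without, at 451 CPM. At least 1 fibroblast UMI occurred in 162 of 167 members, at a median of 0.0734% of a member's UMIs against 0.0447% in the T cell gate and 0.0963% in the neutrophil gate. The 9 markers of monocytes and macrophages summed to 578, 199, 214 and 2344 CPM of the members in libraries 1 to 4, so library 4 stood far above the others, and 167, 89.0, 53.4 and 1639 CPM of this was Lyz2. The part of other cells in the results below was not tested beyond leaving members out.

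To see what the rule had not used, summed counts of members were set against those of the 611 conventional dendritic cells. A gene was tested when its mean over both kinds was at least 20 CPM, and it was called higher or lower when the ratio, after adding 10 CPM to each side, was at least 2-fold and had the same sign in libraries 2 and 4, which each held at least 20 cells of both kinds. All cells are 1 pooled set, so no p-value was computed, and the genes that chose either kind were left out of the counts. Of 6222 tested genes, 605 (9.72%) were higher in plasmacytoid dendritic cells and 292 (4.69%) lower, with a median log2 ratio of 0.12. The lower count moved with the cells used. Without library 4 there were 762 higher and 527 lower genes, and without the 8 members over 20000 UMIs there were 710 and 500. Against all other kept cells, of 6456 tested genes 733 (11.4%) were higher and 564 (8.74%) lower, with a median of 0.06. The members were picked from these same cells, so the ratios describe what the picked cells hold and are no test of a difference. A gene under 20 CPM in one kind of cell was tested only because it was higher in the other, which was so for 262 of the 605 higher and 126 of the 292 lower genes. Counts over tested genes of a list are thus descriptions, to be read against 9.72% higher and 4.69% lower of all tested genes. All log2 ratios given below are on this scale with 10 CPM added.

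Klk1, a tissue kallikrein, had the highest ratio in both comparisons among tested genes found in at least 20% of members. It was 4681, 2501, 1625 and 1956 CPM in libraries 1 to 4 of the members, highest in library 1, and was found in 89.8% of them. Conventional dendritic cells held 5 UMIs of it, and the log2 ratio was 7.66. Its neighbour Klk1b27, whose sequence is close enough that reads could be shared, stood at 346 CPM and a log2 ratio of 4.87. Atp1b1 ranked next after Klk1 against conventional cells. It encodes the beta subunit of the sodium pump and was found at 568 CPM in 92.2% of members against 1.74 CPM, a log2 ratio of 5.62. The 15 highest genes against conventional dendritic cells further held Iglc3, Lair1, Igkc, Mctp2, Pacsin1, Ptprcap, Smim5, Ly6c2, Fcrla, Sh3bgr, Spib and Paqr5, with log2 ratios between 4.07 and 5.29. The 15 highest against all other cells shared 8 genes with this list and added Rnase6, Cd7, Bcl11a, Ighm, Irf8, St8sia4 and Cyb561a3. Rnase6, an antimicrobial ribonuclease, had log2 ratios of 5.59 against all other cells and 2.99 against conventional dendritic cells.

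**Figure D2:**
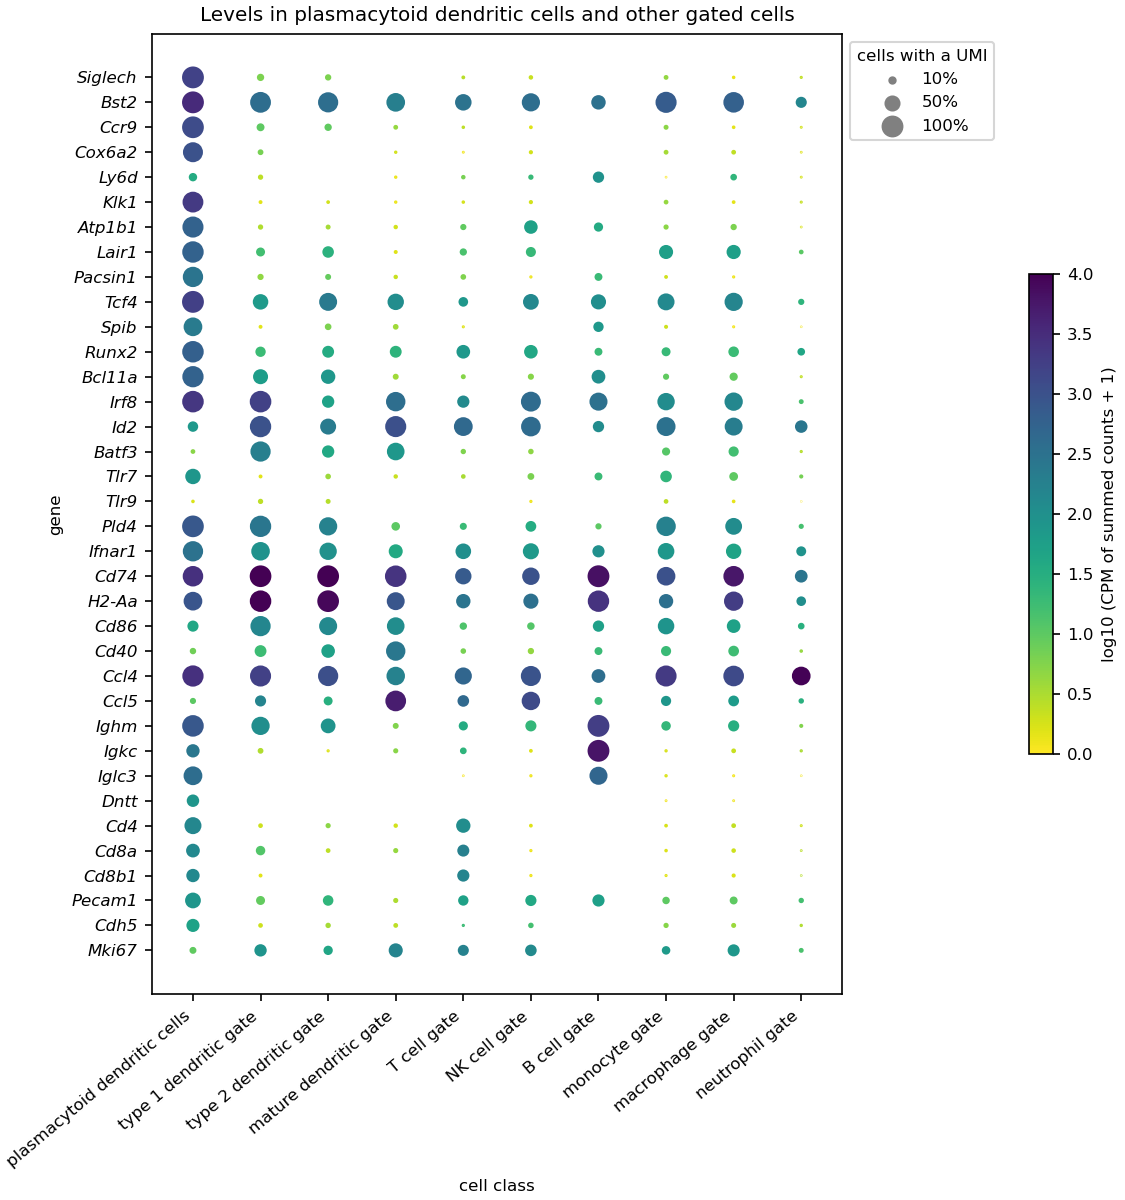
Level of 36 genes in plasmacytoid dendritic cells and in 9 gates of other cells, with colour giving log10 of CPM plus 1 and dot area the percentage of cells with at least 1 UMI. Siglech and Ccr9, which the rule used, and Klk1 and Tcf4 are high in the plasmacytoid column, where Cd74 is lower than in the type 1 and type 2 gates.

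Of 25 further listed genes of plasmacytoid dendritic cells, 23 were tested and 22 were higher, 95.7% beside 9.72% of all genes. Of these 22, 14 were under 20 CPM in conventional cells and so could be tested only through the members. Pacsin1, an endocytic adaptor, was 285 against 4.28 CPM. Plac8, a small cysteine-rich protein, was 4361 against 741 CPM (log2 2.54, and 3.28 without library 4), and Grn, the gene of progranulin, had a log2 ratio of 2.68. Fcer1g, which encodes the common gamma chain of Fc receptors, was the tested gene that was not called, at 1309 against 1075 CPM. Without Cox6a2, a gene of the rule, the other 24 listed genes made up 21396 CPM of the members and 4201 CPM of conventional dendritic cells. In libraries 1 to 4 the members' sum of these 24 was 23647, 20418, 21377 and 21435 CPM.

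Of 16 listed surface receptors, 4 belonged to the genes that chose the cells, 10 others were tested and 9 of these were higher. This was 90% beside 9.72% of all genes, and 5 of the 9 were tested through the members only. Lair1, an inhibitory collagen receptor, was 699, 481, 473 and 588 CPM in libraries 1 to 4 against 14.1 CPM in conventional dendritic cells (log2 4.58). Ly6c2, an antigen shared with inflammatory monocytes, was found in 97.0% of members with a log2 ratio of 4.32, which was 3.68 without library 3 and 5.79 without library 4. Lag3, a checkpoint receptor for MHC class II, was 104 against 4.74 CPM and had at least 1 UMI in 46.7% of members. Ptprs, a receptor phosphatase known to restrain these cells, was 233 against 35.3 CPM. The receptor that was not called, Cd209d, moved between libraries, at 91.2, 356, 519 and 149.5 CPM in libraries 1 to 4, and the level was 143 CPM in conventional dendritic cells.

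The T cell coreceptors Cd4 and Cd8a were both higher, and members differed among themselves in which they held. Cd4 was 182, 194, 114 and 130.5 CPM in libraries 1 to 4 and was found in 56.9% of members, against 38.4% of the T cell gate and 1.80% of the macrophage gate. Cd8a was 684, 89.0, 91.5 and 116 CPM, with library 1 far above the other libraries, and was found in 34.7% of members. Its partner chain Cd8b1, named after its values were seen, was 134 CPM against 0.116 CPM in conventional dendritic cells. Of the 167 members, 38 held both Cd4 and Cd8a, 57 held Cd4 alone, 20 held Cd8a alone and 52 held neither. After thinning to 1000 UMIs, Cd4 was found in 18.6% of members and 14.9% of the T cell gate, and Cd8a in 11.4 and 15.6%. The T cell receptor genes were near 0, with 2 UMIs of Trac and 2 of Trbc1 over all members and 13 of Cd3e. The rule had left out cells with Cd3d or Cd3g, so these low counts follow in part from the choice of members. Of the 69 UMIs of the 7 listed T cell markers, 50 were of Cd28, a costimulatory receptor of T cells. It was found in 19.2% of members at 34.8 against 0.810 CPM in conventional cells (log2 2.05), was under the mean level for testing, and stood at 306 CPM in the T cell gate.

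Transcription factors known to make or keep plasmacytoid dendritic cells were mostly higher or not called. Of 18 listed and 17 tested, 9 (52.9%) were higher and 1 (5.88%) was lower, beside 9.72% and 4.69% of all genes. The median log2 ratio was 1.03, and 1 of the 9 was tested through the members only. Tcf4, the E protein that specifies this lineage, was found in every member at 1641, 1549, 1671 and 1801 CPM in libraries 1 to 4, against 148 CPM in conventional dendritic cells and 14.6% of cells in the T cell gate (log2 3.48). These 4 levels lay close together. Spib, an ETS factor of the same program, was 137, 293, 214 and 213 CPM against 3.12 CPM. Runx2, which is known to control exit of these cells from bone marrow, was 517, 523, 626 and 625 CPM against 27.2 CPM, and Bcl11a, a zinc-finger factor upstream of Tcf4, had a log2 ratio of 3.44. Spib was the most variable of these factors across the libraries, and no library of any of them came near the conventional level.

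Irf8 had to be read against the kind of conventional cell. Members held 3100.3, 1596, 1465 and 2488 CPM in libraries 1 to 4, the type 1 gate 1711 CPM and the type 2 gate 48.7 CPM, so the ratio to all conventional cells of 2.05 on the log2 scale rested on the type 2 and mature cells. Xbp1, the factor of the unfolded protein response, and Ikzf1 had ratios of 2.19 and 1.68. Irf7 and Zeb2, a repressor of the alternative fate factor Id2, were called at 1.24 and 1.03. Nfil3 was the listed factor that was lower, at -1.17. Without library 3 these 3 ratios were 0.83, 0.76 and -0.84, under the threshold, and that of Zeb2 was also under it without library 1 (0.98) and without library 4 (0.67). The factors Mycl, Etv6, Cbfa2t3, Runx1, Irf4, Id3 and Stat3 were not called.

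The opposed factors of conventional dendritic cells were not higher in any of 8 tested cases, and 4 (50%) were lower, beside 4.69% of all genes. Of the 4, 1 was tested through conventional cells only. Id2, which inhibits E proteins, was 0, 41.9, 7.63 and 90.5 CPM in libraries 1 to 4 of the members and 627, 507, 963 and 520.4 CPM in conventional cells (log2 -3.16, and -4.58 without library 4). Batf3, which type 1 cells need, was 4.17 against 87.4 CPM, and Nr4a3 and Relb had log2 ratios of -2.32 and -1.81. The ratio of Relb was -1.04 without library 3 and -2.59 without library 4. Of the Id2 UMIs of the members, 87.5% came from 17 cells, so most members held none.

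**Figure D3:**
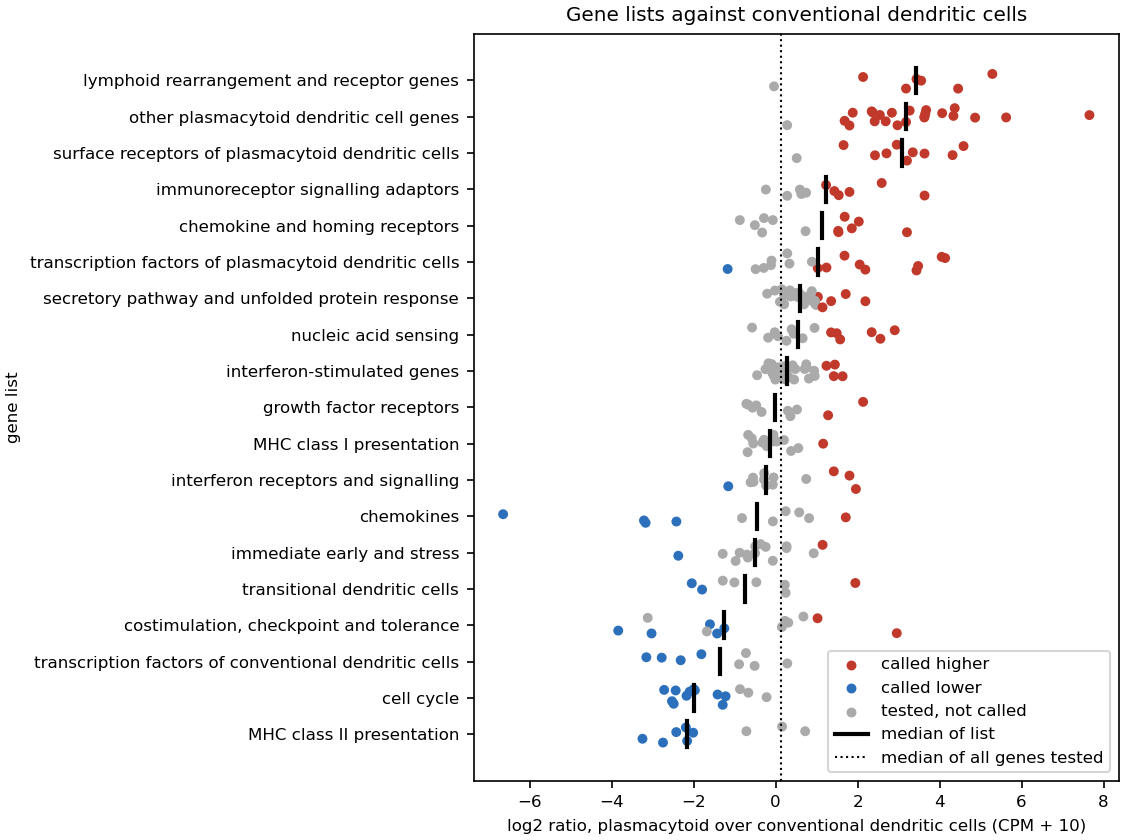
Log2 ratio of plasmacytoid to conventional dendritic cells, with 10 CPM added, for every tested gene of 19 lists, 1 dot a gene. Red and blue dots are genes called higher or lower, grey dots were not called, black bars are list medians and the dotted line is the median of all tested genes, and the surface receptor, further plasmacytoid and lymphoid lists lie furthest to the right.

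Endosomal sensing genes were higher in part. Of 23 listed and 16 tested, 6 (37.5%, beside 9.72% of all genes) were higher and none lower, 2 of them tested through the members only, with a median log2 ratio of 0.55. Tlr7, the receptor of single-stranded RNA on chromosome X, was 137, 68.0, 76.3 and 76.2 CPM in libraries 1 to 4 and was found in 45.5% of members and 1.68% of the T cell gate, against 1.74 CPM in conventional cells (log2 2.90). Its call was lost with a mean of at least 50 CPM and after thinning to 1000 UMIs, at 1.95. After thinning, Tlr7 was found in 4.79% of members, 0.495% of conventional cells, 0.268% of the T cell gate and 2.99% of the monocyte gate. Unc93b1, which carries these receptors from the endoplasmic reticulum to endosomes, was 536 against 173 CPM. Slc15a4 and 5430427O19Rik, whose product TASL is the adaptor of SLC15A4 for IRF5, had ratios of 1.35 and 1.49. Pld4, an exonuclease that degrades single-stranded nucleic acid in endosomes, was 1155, 743, 816 and 815 CPM against 131 CPM (log2 2.56, and 1.96 without library 3). Ctsl, a protease that processes such receptors, was 2106 CPM with a ratio of 2.34. The signalling genes Myd88, Irak1, Irak4 and Chuk were not called, and Myd88 had a ratio of -0.18.

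Tlr9, the receptor of CpG DNA by which these cells are often defined, was almost absent from the counts. In total 1 UMI was counted over the 167 members, in 0.599% of cells, against 9 UMIs in 1.47% of conventional cells. In the GENCODE annotation of GRCm38 the gene spans chr9:106222598-106226883 and no gene on the same strand overlaps it. Tlr3 and Tlr4 were also low, with 4 and 7 UMIs.

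Interferon transcripts themselves were not detected beyond Ifnb1. Of 20 listed type I and type III interferon genes, 19 had 0 UMIs in the members, which allows up to 3 UMIs of 1437811 for each, and Ifnb1 had 6 UMIs in 2 members, both in library 4, and 1 of these UMIs remained without the 8 members over 20000 UMIs. Conventional dendritic cells held 44 UMIs of Ifnb1. Gzmb, the granzyme often reported in human plasmacytoid dendritic cells, had 4 UMIs in the members. No listed cytotoxic gene reached the level for testing against conventional cells. Against all other kept cells 1 was tested, and it was lower (log2 -1.70).

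Interferon-stimulated genes were called at a share near that of all genes. Of 40 listed and 34 tested, 4 were higher and none lower, 11.8% against 9.72% of all genes, with a median log2 ratio of 0.27. Ifi27l2a was 2173, 1350.0, 2205 and 3002 CPM in libraries 1 to 4, against 855 CPM in conventional cells, and Trim30a, Stat2 and Irf7 had ratios of 1.44, 1.42 and 1.24. None of these 4 calls held when conventional cells were weighted to the libraries of the members. Isg15, a ubiquitin-like protein, was not called, at 152, 398, 83.9 and 526 CPM, and neither was Ifitm3, at 349.5, 931, 1182 and 2415 CPM.

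Levels of these genes nevertheless differed between libraries and between cells. The 39 listed genes other than Bst2 summed to 4514, 4280, 5447 and 9874 CPM of the members in libraries 1 to 4, and library 4 held the most. Its quartile range over cells was 3967 to 10964 CPM around a median of 6516, which overlapped those of libraries 1 and 3, with medians of 3698 and 3627, and not that of library 2, with a median of 1846. The same sum was 12050 CPM in conventional dendritic cells and 8234 CPM in the T cell gate of library 4, in both the highest of the 4 libraries. In the monocyte gate it was 19362 CPM in library 4 and higher in library 3, at 23044 CPM. Members of library 4 with up to 20000 UMIs and monocyte markers under 0.1% of UMIs numbered 90. Their sum was 6967 CPM, beside 5447 CPM in members of library 3. These 90 cells still held 514 CPM of monocyte markers, against 214 CPM in library 3. The part of other cells in this difference was not tested. Single genes rested on few cells, because the 17 members with the most UMIs of each gene held 77.3% of the Isg15, 95.6% of the Ifit1 and 90.0% of the Rsad2 counts, against 19.1% of Tcf4.

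**Figure D4:**
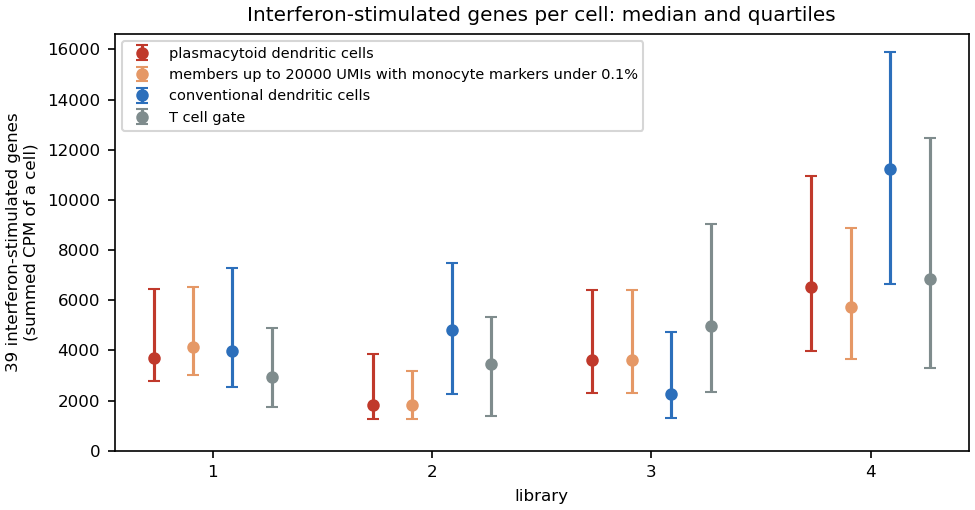
Summed CPM of 39 interferon-stimulated genes per cell in libraries 1 to 4, with points at the median and bars over the quartiles, for plasmacytoid dendritic cells, for those of up to 20000 UMIs with monocyte markers under 0.1%, for conventional dendritic cells and for the T cell gate. Library 4 has the highest median in each kind of cell, 6516 CPM for plasmacytoid and 11229 CPM for conventional dendritic cells.

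Both chains of the type I interferon receptor were higher. Ifnar1 was 319, 476, 351 and 274 CPM in libraries 1 to 4 against 72.4 CPM in conventional cells (log2 1.96), and Ifnar2 was 349.5, 293, 435 and 297 CPM against 82.3 CPM (log2 1.80). For both genes, every library stood above the conventional level. Ifngr1, a chain of the type II receptor, was lower, at 46.6 against 116 CPM (log2 -1.16), with ratios of -0.99 without library 2, -1.76 without library 3 and -0.52 without library 4. With Stat2, 3 of 13 tested genes of this list were higher and 1 lower, 23.1% and 7.69% beside 9.72% and 4.69% of all genes, and the median log2 ratio was -0.23.

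Class II antigen presentation genes were mostly lower than in conventional dendritic cells. Of 11 listed and 9 tested genes, 6 (66.7%, beside 4.69% of all genes) were lower and none higher, with a median log2 ratio of -2.16. Of the 6, 1 was tested through conventional cells only. Against all other kept cells, 2 of 9 were higher and none lower, with a median of 0.10. Of all genes tested in that comparison, 11.4% were higher and 8.74% lower. Cd74, the invariant chain that guides class II molecules, was 6185, 3747, 2853 and 2384 CPM in libraries 1 to 4 of the members and 21579, 16290.3, 5568 and 18432 CPM in conventional cells (log2 -2.16, and -1.47 without library 4). H2-Aa and H2-Eb1 had log2 ratios of -2.75 and -3.25, and Ciita, the transactivator of the class, was 14.6 against 89.3 CPM. The mature gate, 187 of whose 212 cells came from library 3, was close to the members in this respect, with 2460.2 CPM of Cd74 and 835 CPM of H2-Aa, while the type 1 and type 2 gates held 19889 and 18240.4 CPM of Cd74. H2-Oa, which restrains peptide loading, was not called and stood at 45.9 against 24.0 CPM. Of 14 tested class I genes, H2-T23 was higher, 7.14% beside 9.72% of all genes, and none was lower. Its log2 ratio was 1.16, or 0.85 and not called when conventional cells were weighted to the libraries of the members, and B2m had a log2 ratio of 0.03.

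Costimulatory genes were also lower in part. Of 22 listed and 13 tested, 5 were lower, 38.5% beside 4.69% of all genes, and 2 higher, 15.4% beside 9.72%. Of the 5, 3 were under 20 CPM in the members and so could be tested only through conventional cells. Cd83, a marker of dendritic maturation, was 19.5 against 412 CPM, Cd40 was 6.26 against 123 CPM (log2 -3.03, and -1.65 without library 3), and Cd80, Cd86 and Tnfsf9 had log2 ratios of -1.60, -1.43 and -1.25. The 2 higher genes were Lag3 and Vsir, the latter at 108 against 48.0 CPM (log2 1.02, and 0.48 without library 3). The call of Cd80 was also lost without library 3, at -1.34. Cd274, the gene of PD-L1, was 18.1 against 80.0 CPM and was not called, and Ido1 had no UMI in the members. Il12b, a subunit of interleukin-12, had 0 UMIs in the members and 666 in conventional cells. Of 83 UMIs of Il6, 64 came from 1 member.

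Receptors of migration were higher where they were called. Of 19 listed and 12 tested, 6 (50%, beside 9.72% of all genes) were higher and none lower, and 4 of the 6 were tested through the members only. Among the 6 higher genes were Itgal and Selplg, which serve adhesion to endothelium, at 86.9 against 13.8 CPM and 595 against 178 CPM. Cxcr3, the receptor of CXCL9 and CXCL10, was 42.4 against 8.22 CPM, the chemerin receptor Cmklr1 was 41.0 against 7.64 CPM, and the sphingosine phosphate receptor S1pr4 had a log2 ratio of 1.86. Without library 4, Cxcr3, Cmklr1 and S1pr4 stood at 1.08, 0.90 and 1.76 and were not called. The call of S1pr4 was also lost without library 1 (1.76) and with a Siglech limit of 2 or 5 UMIs (1.82 and 1.78). Ccr2 was not called, at 248 against 260.1 CPM. Ccr7, which takes dendritic cells to lymph nodes and chose the mature gate, had 7 UMIs in the members.

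Among chemokines, Ccl4 was the gene that was higher and 4 of 10 tested were lower, 10% and 40% beside 9.72% and 4.69% of all genes. All 4 lower genes were tested through conventional cells only. Ccl4, which draws monocytes and lymphocytes, was 3176, 2161, 1404 and 3085 CPM in libraries 1 to 4, against 853 CPM in conventional cells, 2053 CPM in the monocyte gate and 9361 CPM in the neutrophil gate. It was thus higher than in other dendritic cells and lower than in the neutrophil gate. Ccl5, which draws T cells among others, had the lowest ratio among tested genes found in at least 20% of conventional cells, at 9.04 against 1902 CPM (log2 -6.65). Ccl17 had 0 UMIs in the members and 82.7 CPM in conventional cells, Cxcl16 was 19.5 against 256 CPM, and Cxcl9 had 1 UMI. The call of Cxcl9 rested on library 1, where conventional cells held 509 CPM, and its log2 ratio was -2.42 with and -0.24 without that library. Without library 3 the ratio of Ccl5 was -3.11, that of Ccl4 was 1.10 and that of Cxcl16 was -2.58. Without library 4 that of Ccl5 was -7.34 and that of Cxcl16, -3.17 with all libraries, was -4.20. Cxcl10 was not called, and its level of 30.4, 612, 7.63 and 361 CPM in libraries 1 to 4 rested on few cells, with 115 of its 499 UMIs in 1 member.

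Lymphoid genes were present in part. Of 24 listed, 7 reached the level for testing and 6 of these were higher, 85.7% beside 9.72% of all genes, but 3 of the 6 were tested through the members only. The other 17, among them Rag1, Rag2 and Igll1 at 0 UMIs, were not tested. Ighm, the constant region of the immunoglobulin mu chain on chromosome 12, was 699, 889.5, 725 and 808 CPM in libraries 1 to 4 and was found in 97.0% of members, against 59.7 CPM in conventional cells (log2 3.55, and 4.14 without library 4). Cells that should lack it also held some, with a UMI in 12.9% of the T cell gate (median depth 4463 UMIs) and 21.1% of the macrophage gate (11936 UMIs). At 1000 UMIs a cell the shares were 58.7% of members, 3.85% of the T cell gate and 4.27% of the macrophage gate. At the same depth the share was 95.5% of the B cell gate, in which 22 of 23 cells were deep enough. The members thus stood, at this depth, between the B cell gate and the T cell and macrophage gates.

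Light chains were present without most other B cell genes. Iglc3, the constant region of a lambda chain at chr16:19065230-19065681 on the minus strand, was 714, 356, 198 and 387 CPM in libraries 1 to 4 and was found in 71.3% of members. Conventional dendritic cells held 0 UMIs of it, so the members were at least 1096-fold higher (3 UMIs over the group as the floor), and 0.0883% of the T cell gate and 0.263% of the macrophage gate had a UMI. Iglc2 and Iglc3 are nearly identical, and reads may have been split between them. Igkc was 1049, 136, 289.9 and 229 CPM in libraries 1 to 4 and was found in 32.3% of members, 48 of which also held Iglc3, while 71 members held Iglc3 alone and 6 Igkc alone. Over all members Ms4a1 had 1 UMI, Cd79a 2 and Pax5 1, whereas Cd79b had 50 UMIs in 20.4% of members. Fcrla, an intracellular Fc receptor-like protein of B cells, was 264 against 4.63 CPM (log2 4.23).

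Dntt, the terminal transferase that adds bases at rearranging joints, was found in 46 of 167 members. Its level was 517, 36.6, 30.5 and 67.6 CPM in libraries 1 to 4, with a UMI in 81.8, 16.7, 15.8 and 26.5% of members, and conventional cells held 0 UMIs, which makes it at least 232-fold higher in the members. Library 1 stood apart, as it did for Igkc, Cd8a and Ly6d, with 11 cells behind its values. Dntt was found in none of the 1133 cells of the T cell gate and in 0.154% of the macrophage gate. Rag1 and Rag2 had 0 UMIs, and Ptcra, the pre-T cell receptor chain, was 137, 52.3, 7.63 and 18.1 CPM. Il7r, the receptor of interleukin-7 shared with lymphoid progenitors, was 409 against 85.5 CPM.

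**Figure D5:**
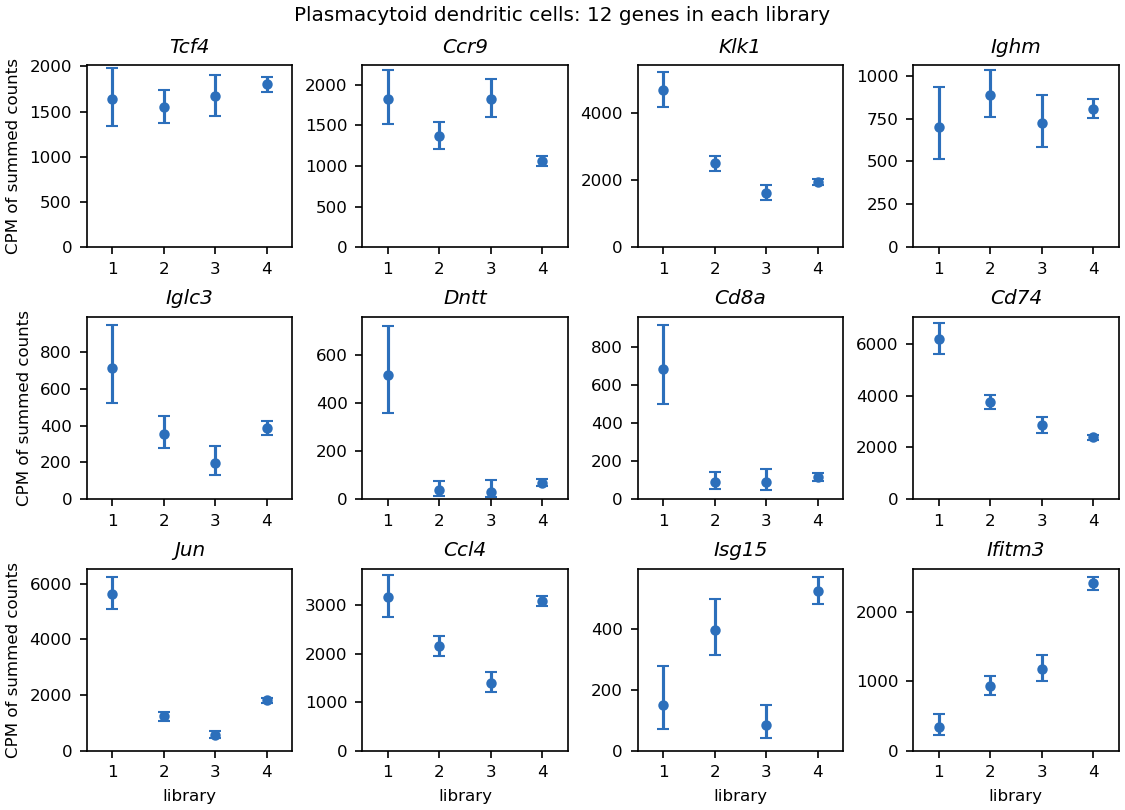
CPM of 12 genes in plasmacytoid dendritic cells of libraries 1 to 4 (11, 24, 19 and 113 cells), with 95% Poisson intervals of the UMI counts. Tcf4 is level across the libraries, Klk1, Dntt, Cd8a and Jun are highest in library 1, and Ifitm3 and Isg15 are highest in library 4.

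Genes of the secretory pathway were higher in a minority. Of 33 listed and 32 tested, 5 (15.6%, against 9.72% of all genes) were higher and none lower, and the list median was 0.59 against 0.12 for all genes. Beside Xbp1 these were Edem2, which clears misfolded glycoproteins (154 against 40.3 CPM), the signal peptidase subunit Sec11c (547 against 208 CPM), Selenos and the chaperone cofactor Dnajb9. The last 2 were close to the threshold. Without the mature gate Selenos had a log2 ratio of 0.99 and Dnajb9 of 0.96, and Dnajb9 was 0.93 without library 1 and 0.47 after thinning. The chaperone Hspa5 was 1093 against 855 CPM and was not called.

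Of 11 tested adaptors of immune receptors, 6 (54.5%, beside 9.72% of all genes) were higher and none lower, 2 of them tested through the members only, with a median log2 ratio of 1.23. Tyrobp, the gene of DAP12 through which Siglec-H signals, was 4043 against 1153 CPM. Blnk, known from B cell receptor signalling, was 272 against 12.7 CPM. The kinase Syk, the phosphatase gene Ptpn6 and Hcst had log2 ratios of 1.23, 1.54 and 1.43. Without library 3, Syk was 0.96 and Hcst 0.92. Of 10 tested growth factor receptors, Csf2rb2 and Il7r were higher, 20% beside 9.72% of all genes, and none was lower. The median log2 ratio of this list was -0.02. Flt3, whose ligand drives all dendritic cells, was 124 against 83.3 CPM and was not called.

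Genes of transitional dendritic cells, a kind between plasmacytoid and type 2 cells, gave no common direction. Of 12 listed and 8 tested, Clec12a was higher (122 against 24.4 CPM), 12.5% beside 9.72% of all genes. Crip1 and S100a4 were lower, 25% beside 4.69%, with log2 ratios of -2.05 and -1.79. Axl, Itgax and Lyz2 were not called, and 83.8% of the Lyz2 UMIs of the members came from 17 cells.

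Cell cycle genes were lower in 11 of 14 tested, 78.6% beside 4.69% of all genes, and higher in none. Of the 11, 9 were under 20 CPM in the members and so could be tested only through conventional cells. Most of these calls depended on the setting, through the fold, the mean level or the sign in libraries 2 and 4. After thinning to 1000 UMIs, Mcm5 (-0.44) and Rrm2 (-0.73) were under 2-fold and Mcm6 was 0.36. Top2a (-1.22), Cdk1 (-1.12), Tubb5 (-1.04) and Cenpf (-1.73) lost their calls while still lower by over 2-fold. With the mean of single-cell CPM 8 of the 11 were lost, with Top2a at -0.98 and Birc5 at -0.83, while Cdk1 (-1.21), Rrm2 (-1.46) and Cenpf (-1.38) stayed past 2-fold. Without library 3, which held most mature cells, Tubb5 (-0.68) and Mcm5 (-0.99) were under 2-fold, Cdk1 (-1.22) and Cenpf (-1.81) lost their calls past it, and Mki67 and Top2a were -1.72 and -1.47. Mki67, a marker of dividing cells, was 8.35 against 95.9 CPM, and Top2a was 13.9 against 92.3 CPM. Few members were cycling by this measure. In all, 2 of 167 (1.20%, 0.145 to 4.26%) held at least 3 of 9 cycle genes, against 16.5% of the mature, 23.5% of the type 1 and 5.99% of the type 2 gate and 15.4% of the T cell gate. At 1000 UMIs a cell, 0 members and 6.22, 9.57 and 2.48% of the 3 conventional gates held at least 2 of the 9.

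Immediate early and stress genes were mixed over libraries. Of 15 tested, Jun was higher and the heat shock gene Hspa1a lower, 6.67% in each direction beside 9.72% higher and 4.69% lower of all genes. The log2 ratio of Hspa1a was -2.38, with -1.61 without library 1 and -1.67 without library 4. Jun was 5638, 1235, 579.8 and 1808 CPM in libraries 1 to 4 of the members and 806 CPM in conventional cells, and Fos, which was not called, was 4134, 1188, 91.5 and 933 CPM. Both were highest in library 1 and lowest in library 3. The 15 genes summed to 20319 CPM of the members in library 1. In the same library they summed to 19202 CPM in conventional cells, 14743 CPM in the T cell gate and 17854 CPM in the monocyte gate. Library 1 was the highest library in each of these kinds. The log2 ratio of Jun was 1.15. It was 0.97 and just under the threshold when conventional cells were weighted to the libraries of the members, and 0.86 without library 3. Their part in other differences between libraries was not tested.

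Of the marker genes listed for other cells, 4 were called higher than in conventional cells. They were Col3a1, 1 of 6 tested fibroblast genes, Fcrla, 1 of 2 tested B cell genes, and Pecam1 and Cdh5, the 2 tested endothelial genes. As shares of the tested genes these were 16.7, 50 and 100%, beside 9.72% of all genes. The direction of Col3a1 turned without the 8 large members. Fcrla, Pecam1 and Cdh5 were tested through the members only. Pecam1, an adhesion molecule, was 82.1 against 11.7 CPM and was found in 47.9% of members. Cdh5 was 48.0 against 1.74 CPM and was found in 31.1% of members, against 0.353% of the T cell gate and 2.19% of the macrophage gate. At 1000 UMIs a cell, 11.4% of members held Pecam1 and 6.59% Cdh5, against 4.29 and 0.09% of the T cell gate. Emcn, another endothelial gene, had 1 UMI, and Kdr, at 20.2 CPM, had all of its UMIs in 17 cells. Of 8 tested monocyte and macrophage markers, C1qb, C1qc and Mrc1 were lower and none was higher, 37.5% lower beside 4.69% of all genes. Of these 3, 1 was tested through conventional cells only. No listed natural killer or mast cell marker reached the level for testing. Epithelial genes were highest in library 1, where Krt8 was 213 CPM against 15.7, 0 and 0 CPM in libraries 2 to 4. The 6 listed epithelial genes summed to 547 CPM of the members in library 1. In the same library they summed to 1047 CPM in conventional cells, 2757 CPM in the T cell gate and 749 CPM in the monocyte gate. Library 1 was also the highest library in each of those kinds.

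The 15 genes furthest below conventional dendritic cells, beside Ccl5 and Cd83, were Bcl2a1d, Clu, Ramp3, Tbc1d4, Bcl2a1b, Mmp25, Naaa, Tnip3, AW112010, Gm13546, Zmynd15, Il1b and Flrt3, with log2 ratios from -4.08 to -3.30. Il1b, the gene of interleukin-1 beta, was 79.3 against 962 CPM. Bcl2a1b and Bcl2a1d are near-identical copies of a survival gene and cannot be told apart with certainty by their reads. Several of these genes were highest in the mature gate, such as Clu at 383 CPM and Ramp3 at 521 CPM, against 9.32 and 81.2 CPM in the type 2 gate.

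Of 108 genes called in the comparison with conventional cells from all lists other than those of markers of other cells, 73 were higher and 35 lower. Without library 4, and with the sign then taken from library 2, 6 of the 108 calls were lost. Zeb2, Ifngr1 and Cmklr1 fell under 2-fold, at 0.67, -0.52 and 0.90, while Hsd11b1 (1.17), Cxcr3 (1.08) and S1pr4 (1.76) stayed past it and were lost on the mean level or the sign. Weighting conventional cells to the libraries of the members lost 21, of which 5 were still past 2-fold, Cd80, Cxcl9, Ccl17, Cdk1 and Cenpf. Among the others were Zeb2, Nfil3, Relb, Unc93b1, H2-T23, Vsir, Ptprc, Syk, Hcst and Ptpn6. Without the mature gate, an alternative added after seeing the data, 16 were lost, 3 of them still past 2-fold, Cd80, Cdk1 and Cenpf. Among the others were Zeb2, Irf7, Nfil3, Relb, Unc93b1, Vsir and Syk. Without library 3, 12 were lost, and the same 3 were still past 2-fold. Among the others were Zeb2, Irf7, Nfil3, Vsir, Hcst and Syk. Leaving out the 8 members over 20000 UMIs lost none of the 108, while Col3a1, a marker gene outside this count, turned from above to below conventional cells.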

How the data were processed

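Cells of 4 tumour samples were measured with the 10x Genomics droplet assay, and the authors deposited 1 matrix of raw UMI counts for all of them (355765099 UMIs, 55450 genes, 4 barcode suffixes). The deposited counts were made with Cell Ranger on the mm10 build. Its version is 2.1.1 in the submitters' processing notes, 3.0.2 in the design text and 6.1.2 in the matrix header. Library totals were 108646352, 81369540, 69255999 and 96493208 UMIs.

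Members and gene lists were chosen with earlier results of these data known. CPM was computed from summed counts of a kind of cell, with exact Poisson intervals, and shares with exact binomial (Clopper-Pearson) intervals, both at 95%. Molecules of 1 cell share that cell, so these intervals cover counting error only. Against conventional cells, the 9 genes of the rule and 7 genes of the gates were left out of the counts of called genes. Genes were named when they belonged to the rule or a list, or were among the 15 highest or lowest called genes found in at least 20% of the cells that held more. The 12 genes counted per cell were Klk1, Atp1b1, Klk1b27, Pacsin1, Spib, Smim5, Runx2, Tcf4, Lair1, Iglc3, Mctp2 and Sla2.

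Dendritic gates needed Ccr7, Fscn1 and Ccl22 each at 1 UMI (mature), 2 of Xcr1 and Clec9a together (type 1), or 2 of Cd209a and 1 of H2-Ab1 (type 2), with no Cd3d or Cd3g and S100a8 and S100a9 under 1% of UMIs. Further gates held cells outside those before them. They were neutrophils (S100a8 and S100a9 at 5% of UMIs or more, Csf3r), T cells (2 UMIs of Cd3d and Cd3g), NK cells (Ncr1), B cells (2 of Cd79a, with Ms4a1 or a further gene that is not reported here), macrophages (5 of C1qa, C1qb and C1qc) and monocytes (2 of Ly6c2, with Ccr2). Gene spans came from GENCODE vM21, in which all 55450 genes matched, and promoters from RefSeq GRCm38.p6. Tools were Python 3.11.15, numpy 2.4.6, scipy 1.17.1, pandas 2.3.3 and matplotlib 3.10.9. The rule for calls was also run on simulated counts with the cell numbers of the comparison with conventional cells and 5815 genes. Of the genes that reached the level for testing, all 100 changed 4-fold upwards and all 73 changed 4-fold downwards were called. A changed gene under that level could not be called, and recovery of changes smaller than 4-fold was not tested.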

Additional observations from a re-analysis of the deposited data

How the results depend on the processing

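The number of members was 160 to 175 under other limits for Siglech, the accessory genes, Bst2, Cd3d and Cd3g, S100a8 and S100a9, genes and mitochondrial UMIs. Leaving out each library in turn gave 54 to 156 members and 0.232 to 0.642% of kept cells, with the lowest of both without library 4. The counts of 605 and 292 genes higher and lower than in conventional cells and of 733 and 564 against all other cells depended on thresholds. With 50 CPM added they were 250, 133, 309 and 212, and with a mean of at least 50 CPM they were 368, 176, 455 and 291. Without a filter on low values, 878 genes were lower than in all other cells. Genes lower than in conventional cells numbered 279 to 527 when each library was left out, with 527 without library 4, and 459 after thinning to 1000 UMIs. They numbered 500 without members over 20000 UMIs and 483 without members whose markers of other cells reached 1% of UMIs, both alternatives chosen after seeing the data. Leaving out members with 2 or more UMIs of such markers kept 6 cells, and gave 2124 higher, 1149 lower and 82 listed lower genes.

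Of the 108 listed calls outside the marker lists, 64 held under every alternative other than that of 6 cells. Weighting conventional cells to the libraries of the members lost 21, 5 of them still past 2-fold, 50 CPM added lost 24, none of them past it, the mean of 50 CPM lost 19, all past it, and thinning lost 17, 10 of them past it. Mcm6 reversed after thinning, with a log2 ratio of 0.36, and with 6 cells Cd8a (-0.53), Hsd11b1 (-0.67) and S1pr4 (-0.39) reversed. The causes were not tested. No paired analysis was possible because no label ties a library to a sample and no test was made.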
